A study of Mus musculus with 9 samples.

Results

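The lysyl oxidase family comprises 5 genes in the mouse: Lox, Loxl1, Loxl2, Loxl3 and Loxl4. Its members were taken as every probe set that the platform annotation pairs with one of these 5 symbols, which gave 8 of the 22690 probe sets in the files, and 5 of the 13319 gene symbols annotated there. A probe set is a group of short oligonucleotides on an Affymetrix array that together report 1 transcript. Of the 8, 3 were named for Lox, 1 for Loxl1, 1 for Loxl3 and 2 for Loxl4. The remaining 1 was paired with both Loxl2 and the gene model Gm21451, so its signal could not be credited to Loxl2 alone.

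The samples were whole lungs of C57BL/6 mice, an inbred laboratory strain, on 9 single-colour arrays. Treated mice had received 10 µg of exosome protein through the tail vein. The exosomes, small membrane vesicles shed by cells, came from B16-F10, a melanoma line of C57BL/6 origin that colonises the lung. There were 3 arrays of control lungs, 3 of lungs 24 h after injection and 3 of lungs 48 h after it. The treatment of the control mice and the age and sex of all mice are not stated in the labels. Neither is it stated if each array carried RNA of a single mouse or of several, so the p values below speak of the spread among these arrays, which may be technical.

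Lysyl oxidases are copper-dependent amine oxidases that act outside the cell. They oxidise lysine and hydroxylysine side chains of collagen and of tropoelastin, and the aldehydes formed condense into the covalent cross-links that make collagen fibrils and elastic fibres strong and insoluble. In the lung, fibroblasts and smooth muscle cells make most of the collagen and elastin on which these enzymes act. Lox has also been studied in mouse tumour models, where the secreted enzyme was described in the lung before metastases form, which is the setting that exosome injection addresses.

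The signal on each array was a linear intensity that the authors had scaled. Detection calls covered 69.9% to 72.6% of probe sets on the 9 arrays, and the median signal lay between 174 and 185 units. Each array was transformed to log2 of the signal plus 16 and quantile normalised, and folds below are on that offset scale, which understates changes of dim probe sets. The 3 arrays with replicate number 1, 1 in each group, stood apart from the other 6 on the first principal component. That component held 41.9% of the variance and gave them scores of -26.0 to -24.4 against 4.68 to 18.0. A second limit touched every direction: the authors' table for the whole series carries the same values under other labels. Its columns labelled control hold the files labelled 48 h, its columns labelled 24 h hold the control files, and its columns labelled 48 h hold the 24 h files. The labels of the sample files are used below, and values under the table's labels are given in the closing section.

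Family members were detected at very different certainty. Both brighter Lox probe sets and those of Loxl1 and Loxl3 had a detection p below 0.05 on all 9 arrays. The Loxl4 probe sets reached it on 6 and 7 arrays, the third Lox probe set on 5 and the probe set shared by Loxl2 and Gm21451 on 4. Testing required detection on all 3 arrays of 1 group or more, and 6 of the 8 met this. Both Loxl4 probe sets passed only through the 24 h group, in which all 3 arrays detected them. With the other probe sets of the chip, 15886 were tested. In bulk lung RNA, fewer cells of a type and less RNA per cell cannot be told apart.

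**Figure D1:**
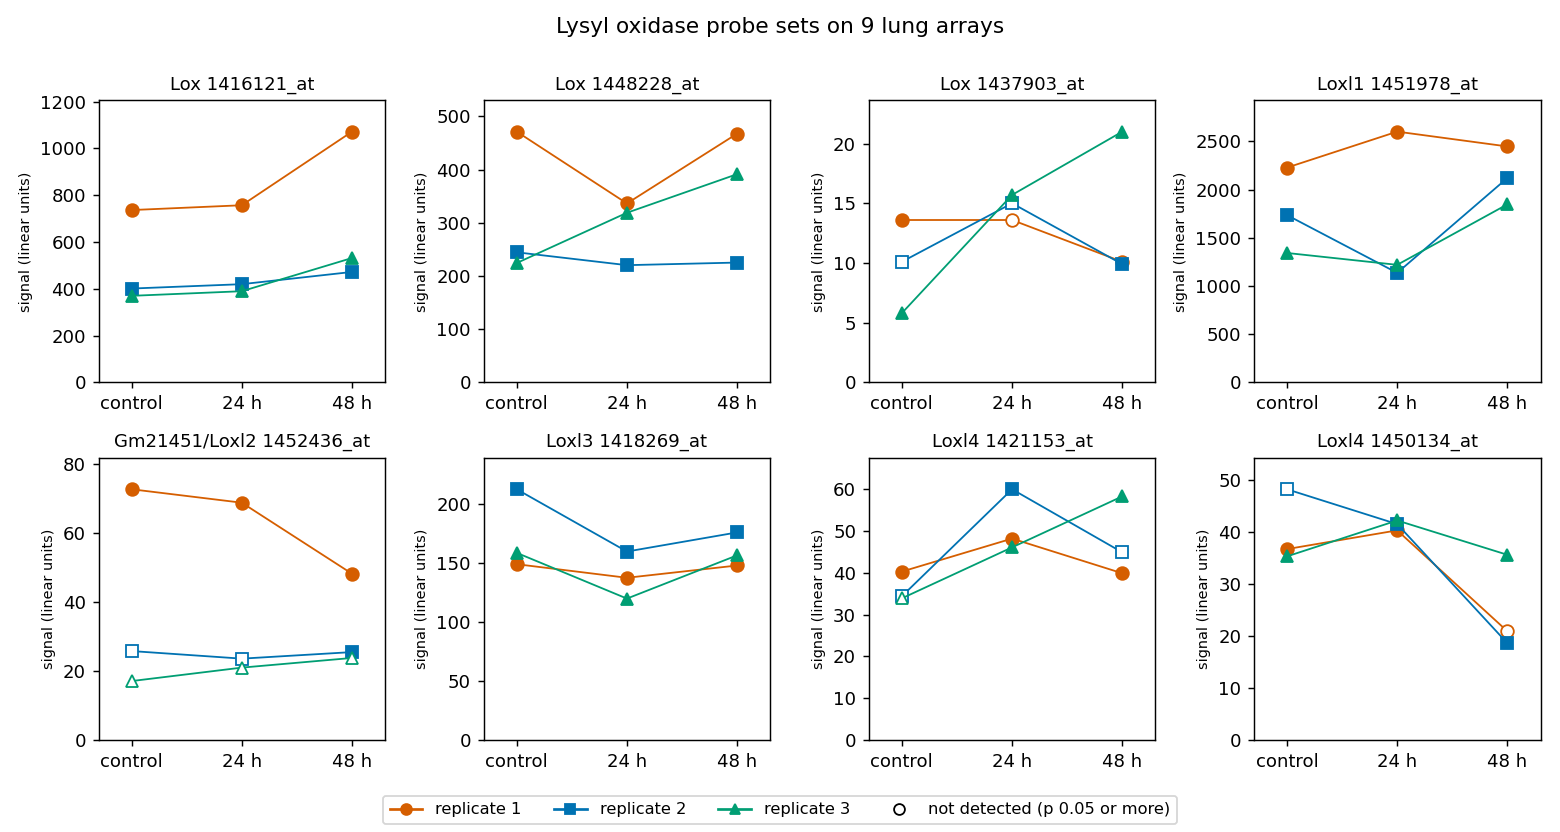
Deposited signal (linear units, y axis from 0) of the 8 probe sets of the lysyl oxidase family on each of the 9 arrays, by group (control, 24 h, 48 h). Each point is 1 array, lines join arrays with the same replicate number, and open symbols mark arrays with a detection p of 0.05 or more. Replicate 1 lies highest in every group for Lox 1416121_at (737 to 1072 units), for Loxl1 (2228 to 2601 units) and for the probe set shared by Loxl2 and Gm21451 (48.2 to 72.7 units).

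None of the 6 tested probe sets of the family passed the test in any comparison between groups (limma, Benjamini-Hochberg adjusted p under 0.05 over all tested probe sets). Neither did any other probe set: 0% of the 15886 were called at 24 h against control, at 48 h against control and at 48 h against 24 h. The smallest adjusted p values were 0.99964, 0.99983 and 0.99995. At an unadjusted p under 0.05, 1 member probe set was past the threshold at 24 h (1.16% of all tested), 2 at 48 h (1.42%) and 1 between the times (1.78%). All of these were Loxl4 probe sets, which the detection filter let in through the 24 h group, so nothing is read from the counts. The first 2 comparisons share the control arrays and are not independent.

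Deviations from the group means correlated positively in all 9 same-number pairs of arrays, at 0.275 to 0.651. Pairs of other numbers ranged from -0.561 to 0.308. Replicate 1 stood apart in every group, which alone can raise the same-number values. A pairing of numbers 2 and 3 is not established by them. With the number as a block in the limma fit, again 0% of probe sets passed after adjustment in each comparison. Unadjusted p values under 0.05 were then held by 2 of the 6 member probe sets at 24 h (3.47% of all tested), by 3 at 48 h (4.65%) and by 3 between the times (5.56%). In each comparison these include Loxl4, which the detection filter let in through the 24 h group. With so few probe sets, of which several share a gene, the counts are a description and not a test of the family.

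Lox, the founding member of the family, was read at 2 well detected probe sets. At 1416121_at the control arrays gave 737, 401 and 370 signal units for replicates 1, 2 and 3. The 24 h arrays gave 757, 420 and 390 units. The 48 h arrays gave 1072, 472 and 532 units. Replicate 1 was the highest array of every group, and the ranges of the 3 groups overlapped. Replicate by replicate, though, the 48 h array was above both its control and its 24 h partner in all 3 sets.

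The log2 means at 1416121_at were 8.94 ± 0.52 in controls, 9.02 ± 0.50 at 24 h and 9.38 ± 0.61 at 48 h (SD, n = 3 each). At 24 h Lox was 1.06-fold the control level (95% interval 0.599 to 1.86, limma adjusted p = 0.99964). At 48 h it was 1.36-fold the control level (0.772 to 2.40, adjusted p = 0.99983), a difference within the spread between arrays. Setting each array against its same-number control gave log2 differences of 0.55, 0.24 and 0.54 at 48 h. Among all tested probe sets 11.5% were likewise higher in 3 of 3 pairs at 48 h, so that pattern alone is common on these arrays.

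With the replicate block the interval of the 48 h fold of Lox narrowed to 1.17 to 1.58 and the unadjusted p was 0.00174, against 0.253 without the block. The blocked adjusted p was 0.99838, so the call did not change. Against 24 h, Lox at 48 h was 1.29-fold (0.731 to 2.27), with pair differences of 0.49, 0.16 and 0.45 on the log2 scale. The blocked p for that comparison was 0.00515 and the blocked adjusted p 0.779. Without the 3 replicate 1 arrays the log2 difference at 48 h against control was 0.39 (unadjusted p = 0.0255, adjusted p = 0.99997), against 0.44 with them. Leaving out single arrays moved it further: it was 0.093 without 48 h replicate 1 (unadjusted p = 0.789) and 0.74 without control replicate 1. Against 24 h, the 0.37 became 0.015 without 48 h replicate 1 and 0.65 without 24 h replicate 1. These fits had no block. Replicate 1 lay 0.94 above replicates 2 and 3 on the log2 scale, so dropping 1 such array leaves the groups unbalanced for it.

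The other well detected Lox probe set, 1448228_at, showed less. Its signals were 471, 245 and 224 units in controls, 336, 220 and 319 units at 24 h, and 468, 225 and 392 units at 48 h. The groups overlapped, and here replicate 3 of the 24 h and 48 h groups lay near replicate 1 rather than near replicate 2. At 48 h it was 1.19-fold the control (0.733 to 1.92, limma adjusted p = 0.99983), with pair differences of 0.031, -0.080 and 0.79 on the log2 scale, so the value rests on replicate 3. At 24 h it was 0.987-fold (0.609 to 1.60), and without the replicate 1 arrays that log2 difference turned from -0.020 to 0.20.

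Across the 9 arrays the 2 Lox probe sets correlated with r = 0.81 (Spearman rho 0.80), and with r = 0.64 once each replicate number's mean was subtracted. Arrays of one number vary together, and the coefficients are a description only. The third Lox probe set, 1437903_at, gave 5.8 to 21.0 units, the lowest signals of the family. It was not tested, and its groups overlapped.

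**Figure D2:**
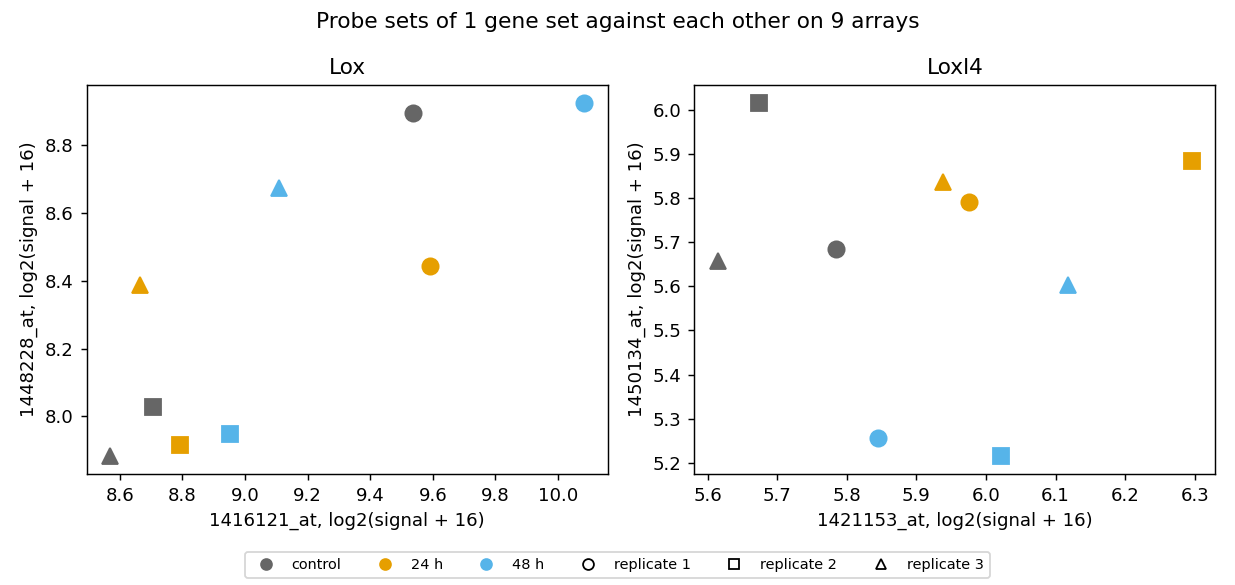
Normalised log2 signal of probe sets of the same gene plotted against each other, 1 point per array, for the 2 well detected Lox probe sets and for the 2 Loxl4 probe sets. Lox points rise together (r = 0.81, n = 9 arrays), with the replicate 1 arrays to the right, while the Loxl4 points show no common order (r = -0.048).

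Loxl1, which in mice is needed to renew elastic fibres, was the family member whose groups differed most between 24 h and 48 h among the well detected probe sets. Controls gave 2228, 1735 and 1343 units, the 24 h arrays 2601, 1136 and 1219 units, and the 48 h arrays 2447, 2121 and 1847 units. At 24 h replicate 1 was far above the other arrays of its group, and the groups overlapped. At 48 h all 3 arrays were above their same-number controls, as for 11.5% of all tested probe sets.

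The log2 means of Loxl1 were 10.77 ± 0.37 in controls, 10.61 ± 0.66 at 24 h and 11.06 ± 0.20 at 48 h (SD, n = 3 each). Loxl1 was 0.894-fold the control at 24 h (0.558 to 1.43) and 1.22-fold at 48 h (0.759 to 1.95), with limma adjusted p values of 0.99964 and 0.99983. At 48 h it was 1.36-fold the 24 h level (0.849 to 2.18, adjusted p = 0.99995). The pairs for that comparison were -0.11, 0.86 and 0.58 on the log2 scale, so replicate 1 did not share the direction of the others.

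With the block, the 48 h against 24 h difference of Loxl1 had an unadjusted p of 0.0364 and an adjusted p of 0.878. Leaving out 1 array at a time, without the block, gave log2 differences of 0.23 (without 24 h replicate 2) to 0.82 (without 24 h replicate 1). Leaving out the replicate 1 arrays raised it from 0.44 to 0.72 (unadjusted p = 0.00308, adjusted p = 0.99955). In that reduced set Loxl1 was 0.36 lower than control at 24 h and 0.37 higher at 48 h on the log2 scale, with adjusted p values of 0.99995 and 0.99997.

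Loxl2, an enzyme known for cross-linking collagen IV of basement membranes, had no probe set of its own among the annotated ones. The shared probe set 1452436_at pairs it with Gm21451, and the RefSeq table for GRCm38.p6 places both genes on chromosome 14. Its signals were 72.7, 25.8 and 17.1 units in controls, 68.8, 23.6 and 21.0 units at 24 h, and 48.2, 25.5 and 23.8 units at 48 h. The 3 replicate 1 arrays, at 48.2 to 72.7 units, were all above the other 6, at 17.1 to 25.8 units, while the groups overlapped. How common such a separation is among all probe sets was not counted. It was detected on 4 arrays and not tested.

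Loxl3, which in mice is required for the palate and the spine to form, ran lowest at 24 h. Controls gave 149, 212 and 158 units, the 24 h arrays 137, 160 and 120 units, and the 48 h arrays 148, 176 and 156 units. Replicate 2 was the highest array in every group, unlike Lox and Loxl1, and the groups overlapped. Each 24 h array was below its same-number control, as were 10.7% of all tested probe sets.

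At 24 h Loxl3 was 0.834-fold the control (0.645 to 1.08, limma adjusted p = 0.99964), with pair differences of -0.082, -0.35 and -0.36 on the log2 scale. The blocked interval was 0.717 to 0.971 and the blocked p 0.0249, with an adjusted p of 0.99922. At 48 h it was 0.959-fold the control (0.741 to 1.24). Between the times it was 1.15-fold at 48 h (0.888 to 1.49), higher in 3 of 3 pairs, as were 13% of all tested probe sets.

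Loxl4, an amine oxidase of the branch with scavenger receptor domains, had low signals on both of its probe sets, and they did not move together. At 1421153_at controls gave 40.3, 34.4 and 33.9 units, the 24 h arrays 48.2, 60 and 46.1 units, and the 48 h arrays 39.9, 44.9 and 58.3 units. All 24 h signals were above all control signals. At 48 h the lowest array, 39.9 units, was just below the highest control, 40.3 units, although on the normalised log2 scale the 48 h arrays all lay above the controls.

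At this probe set Loxl4 was 1.30-fold the control at 24 h (1.06 to 1.59, unadjusted p = 0.0165, limma adjusted p = 0.99964). At 48 h it was 1.23-fold (1.01 to 1.51, unadjusted p = 0.0433, adjusted p = 0.99983). It was higher in 3 of 3 pairs at both times, as were 11% of all tested probe sets at 24 h. Groups that did not overlap on the normalised scale were found for 3.88% of all tested probe sets at 24 h and for 4.48% at 48 h. This probe set was tested only because all 24 h arrays detected it, and such a filter favours a high 24 h level.

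The other Loxl4 probe set, 1450134_at, went the other way at 48 h. Controls gave 36.7, 48.2 and 35.3 units, the 24 h arrays 40.3, 41.5 and 42.2 units, and the 48 h arrays 20.9, 18.6 and 35.6 units. Replicates 1 and 2 at 48 h were below every other array, while replicate 3, at 35.6 units, was level with the lowest control. The 24 h arrays lay within the range of the controls.

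At 48 h this probe set was 0.743-fold the control (0.595 to 0.926, unadjusted p = 0.0135, limma adjusted p = 0.99983). Against 24 h it was 0.717-fold (0.575 to 0.894, unadjusted p = 0.00741, adjusted p = 0.99995, blocked adjusted p = 0.779). This probe set too was tested only because all 24 h arrays detected it, which favours a high 24 h level in that comparison, so its p is no support for a fall. On the normalised scale the 48 h arrays were below all 24 h arrays, as for the 4.58% of tested probe sets whose groups at these times did not overlap in either direction. They were lower in 3 of 3 pairs against control and against 24 h, a pattern shared by 12.2% and 14.9% of all tested probe sets. The 2 Loxl4 probe sets correlated with r = -0.048 (Spearman rho -0.10) over the 9 arrays, so no direction can be given for the gene at 48 h.

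**Figure D3:**
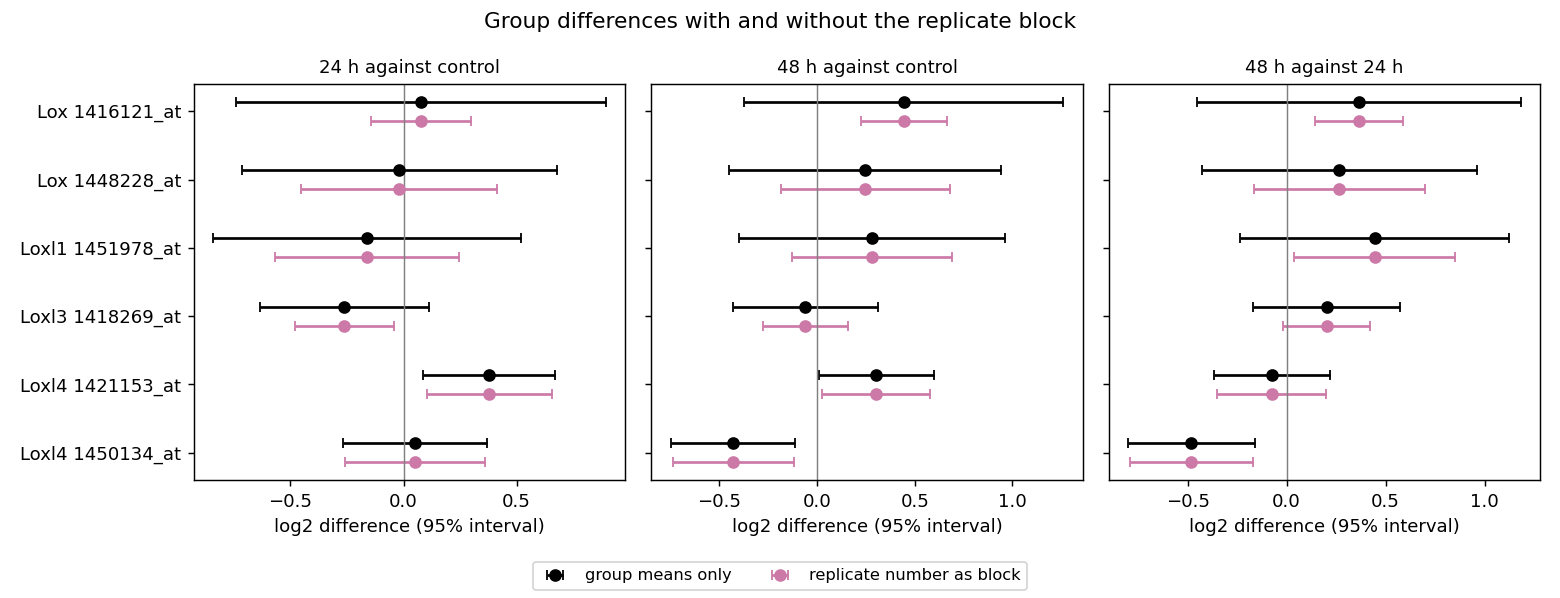
Log2 differences of the 6 tested probe sets of the family for 24 h against control, 48 h against control and 48 h against 24 h. Points are limma estimates, and bars are 95% intervals, without (black) and with (pink) the replicate number as a block. The intervals of Lox 1416121_at narrow most with the block, and the 2 Loxl4 probe sets lie on opposite sides of 0 at 48 h.

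Lox and Loxl1 were called in a contrast of replicate numbers, unlike in the comparisons of groups. The contrast of replicate 1 with replicates 2 and 3, with groups in the model, was examined because these arrays stood apart over all genes, so its p values are not independent of that observation. What the number stands for (a mouse, a day, a hybridisation) is not stated in the labels. In this contrast 9.77% of all tested probe sets were called higher and 10.3% lower at a limma adjusted p under 0.05.

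Lox 1416121_at gave 737 to 1072 units on the replicate 1 arrays and 370 to 532 units on the others, without overlap. The share of all tested probe sets without overlap between these arrays was not counted. It was 1.92-fold higher (1.68 to 2.19, adjusted p = 0.00218), above 99.2% of all tested probe sets in this contrast. Lox 1448228_at was 1.53-fold higher (1.18 to 1.98, adjusted p = 0.0347), though its ranges of 336 to 471 and 220 to 392 units overlapped. Loxl1 was 1.59-fold higher (1.24 to 2.03, adjusted p = 0.0231), with 2228 to 2601 units against 1136 to 2121 units. The calls of 1448228_at and Loxl1 were lost without some single arrays. Their limma adjusted p values were 0.17 and 0.0768 without control replicate 1, and 0.0512 and 0.0833 without 24 h replicate 1. In these 2 settings the log2 difference of 1448228_at went from 0.61 to 0.45 and 0.78. That of Loxl1 went from 0.67 to 0.72 and 0.43. Calls over all tested probe sets fell as well, from 3196 to 881 and 1185.

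Loxl3 and Loxl4 were not called in this contrast. Loxl3 was 0.897-fold on the replicate 1 arrays (0.787 to 1.02, adjusted p = 0.205). The Loxl4 probe sets were 0.949-fold (0.804 to 1.12) and 0.917-fold (0.761 to 1.10), with adjusted p values of 0.637 and 0.474. That Lox and Loxl1 passed and these did not is no test of a difference between the genes, which was not made.

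**Figure D4:**
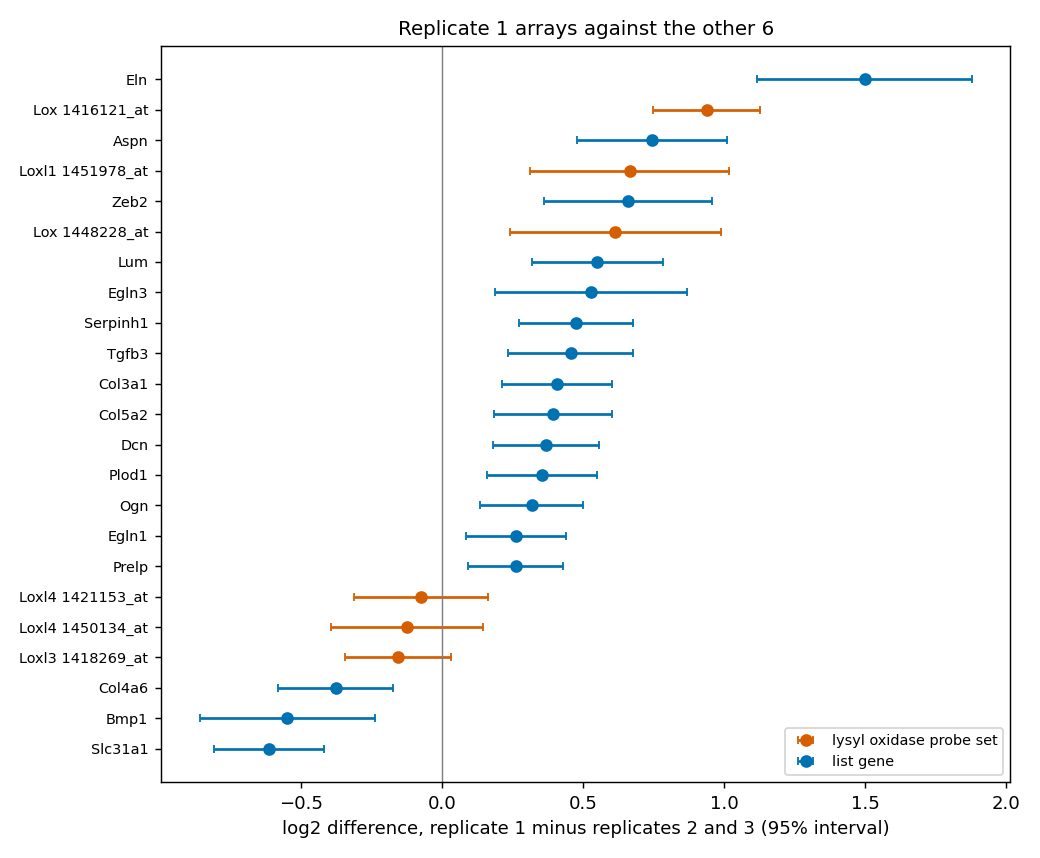
Replicate 1 against replicates 2 and 3, as log2 differences with 95% intervals (limma), for the family's tested probe sets and for genes of the related lists that passed in this contrast. Lox 1416121_at (0.94) and Eln (1.50) lie to the right, and Loxl3 and both Loxl4 probe sets span 0.

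The enzymes' substrates were each read at their brightest tested probe set. Of these, 2 of 6 fibrillar collagens and 1 of 14 elastic fibre genes were called higher on the replicate 1 arrays. Lower was 1 of 6 collagen IV genes, against the shares of all tested probe sets given above. The elastic fibre gene was Eln, which encodes tropoelastin. Its signals were 915, 500 and 386 units in controls, 1129, 521 and 283 units at 24 h, and 1889, 565 and 384 units at 48 h. Replicate 1 was the highest array in every group, as for Lox. It was 2.83-fold higher on the replicate 1 arrays (2.17 to 3.68, limma adjusted p = 0.0034). At 48 h against control Eln was 1.33-fold (0.509 to 3.46), with pair differences of 1.03, 0.18 and 0.020 on the log2 scale, so the value rests on replicate 1.

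Fibrillar collagens, the main substrate of Lox, had 6 of 11 listed genes tested. None passed in a comparison of groups. At 24 h 1 of 6 was higher than control (median log2 difference -0.074), at 48 h 6 of 6 (median 0.22), and between the times 6 of 6 were higher at 48 h (median 0.30). Over all tested probe sets 50.3%, 49.1% and 48.6% were higher in these comparisons, with medians of 0.00066, -0.0025 and -0.0043. Without the replicate 1 arrays the 6 collagens kept medians of 0.17 at 48 h and 0.36 between the times.

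Col1a1, a chain of type I collagen, gave 854, 900 and 723 units in controls, 719, 617 and 622 units at 24 h, and 1258, 1070 and 668 units at 48 h. All 24 h signals were below all control signals, though the nearest were 719 and 723 units. Among all tested probe sets, 3.88% had groups that did not overlap in either direction on the normalised scale at 24 h. The 48 h range spanned that of the controls. It was 1.46-fold higher at 48 h than at 24 h (1.07 to 2.00, unadjusted p = 0.0221, limma adjusted p = 0.99995). Its other probe set, 1455494_at, gave 1.69-fold. Col5a1, a chain of the collagen that starts fibrils, was 1.26-fold in the same comparison (1.00 to 1.59, unadjusted p = 0.0481). At 24 h against control Col1a1 was 0.803-fold (0.587 to 1.10) and Col5a1 0.878-fold (0.698 to 1.10).

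Collagen IV of basement membranes had all 6 genes tested, of which 6 were higher at 48 h than in controls with a median log2 difference of 0.11. None passed, and the highest by moderated statistic were Col4a1 at 1.11-fold (0.957 to 1.28) and Col4a2 at 1.08-fold (0.888 to 1.30). Elastic fibre genes had 14 of 18 tested, 8 of them higher at 48 h (median 0.060) and none past the test. Ltbp1, which tethers latent TGF-beta in the matrix, was 0.846-fold at 24 h (0.712 to 1.01) and 1.29-fold at 48 h against 24 h (1.08 to 1.53, unadjusted p = 0.00895, limma adjusted p = 0.99995). Ltbp3 was 1.19-fold the control at 48 h (0.953 to 1.48), and Ltbp2 0.900-fold (0.696 to 1.16).

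Genes that mature the enzymes, among them the procollagen proteinase Bmp1, had 7 of 10 tested. At 24 h 0 of 7 were higher (median log2 difference -0.029), and Tll1, a relative of Bmp1, was 0.785-fold the control (0.601 to 1.03). At 48 h 4 of 7 were higher (median 0.034), and Pcolce, which enhances Bmp1, was 1.14-fold (0.904 to 1.45). Collagen modification and folding genes had 11 of 14 tested, 8 of them higher at 48 h (median 0.053). Serpinh1, the collagen chaperone, was 1.17-fold at 48 h (0.844 to 1.63), and Crtap, a partner of prolyl hydroxylation, 0.964-fold (0.810 to 1.15). Small proteoglycans that bind collagen fibrils had 7 of 7 tested, with 1 higher at 48 h (median -0.026), Lum at 0.832-fold (0.540 to 1.28) and Fmod at 0.868-fold (0.609 to 1.24). No gene of these lists passed the limma test in a comparison of groups.

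The lists for what feeds or induces the enzymes showed medians near 0 at 48 h against control. Copper supply genes had 7 of 7 tested, 4 of them higher, with a median of 0.0061 on the log2 scale. TGF-beta inputs had 9 of 12 tested, 1 higher (median -0.065), with Smad4 at 0.903-fold (0.766 to 1.06) and Smad7 at 0.895-fold (0.683 to 1.17). Hypoxia inputs, of interest since Lox is a hypoxia-induced gene, had 12 of 12 tested, 6 higher (median -0.016). Car9, a hypoxia-induced carbonic anhydrase, was 0.705-fold at 24 h (0.498 to 1.00). Epithelial-mesenchymal factors had 8 of 9 tested, 5 higher (median 0.043). Zeb2, a transcriptional repressor, was 1.61-fold the control at 48 h (1.03 to 2.52, unadjusted p = 0.0402, limma adjusted p = 0.99983). None of these genes passed.

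In the replicate contrast, 9.77% of all tested probe sets were called higher and 10.3% lower. Among the 7 small proteoglycans, 5 were called higher on the replicate 1 arrays. They were Aspn at 1.67-fold, Lum at 1.46-fold, Dcn at 1.29-fold, Ogn at 1.25-fold and Prelp at 1.20-fold. Of the fibrillar collagens, Col3a1 was called at 1.33-fold and Col5a2 at 1.31-fold. The other Col3a1 probe set, 1427884_at, gave 1.85-fold (limma adjusted p = 0.00634). Col1a1 was not called at its brightest probe set (1.21-fold, adjusted p = 0.157) but was at 1455494_at (1.33-fold, adjusted p = 0.0296). Serpinh1 at 1.39-fold, Plod1 (a lysyl hydroxylase) at 1.28-fold, Zeb2 at 1.58-fold, Tgfb3 at 1.37-fold, Egln3 at 1.44-fold and Egln1 at 1.20-fold were called too. Called lower were Slc31a1, the main copper importer, at 0.653-fold, Bmp1 at 0.683-fold and Col4a6 at 0.769-fold.

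Markers of lung cell types moved with the same arrays. The summed signal of 10 of 10 fibroblast markers was 29794 to 32716 units on the replicate 1 arrays and 25919 to 28893 on the others, without overlap, and 7 of these genes are also in the lists above. Of those 7, Fn1 (0.863-fold) and Mfap5 (0.966-fold) were lower on the replicate 1 arrays and the others higher. Smooth muscle markers, 6 of 7 tested, summed to 9953 to 11264 against 6916 to 9970 units, with ranges that touched. Sums were lower on the replicate 1 arrays for 4 markers of alveolar type 2 cells (30020 to 31769 against 36959 to 43606 units), 5 of alveolar type 1 cells (23545 to 25024 against 28104 to 31863) and 4 of airway cells (30405 to 31954 against 36409 to 45946). They were also lower for 7 endothelial markers (20073 to 20896 against 21614 to 25010) and 5 alveolar macrophage markers (9532 to 9892 against 10467 to 12258), likewise without overlap. The part of these cell types in the values of Lox and Loxl1 was not tested. By group the fibroblast sums overlapped, at 25919 to 29940 units in controls, 26597 to 29794 at 24 h and 28226 to 32716 at 48 h. Within replicate numbers, though, each 48 h sum was above its control (32716 against 29940, 28893 against 28230 and 28226 against 25919 units) and above its 24 h partner in 3 of 3 sets. Bright genes weigh most in a sum, such as Col3a1, at 6036 units in control replicate 1 and 7585 at 48 h. Col1a1, Col1a2, Col3a1, Fn1 and Mfap5 were higher at 48 h than in controls, while Dcn (0.925-fold) and Lum (0.832-fold) were lower. Lox 1416121_at was also highest at 48 h in all 3 sets. At 24 h against control the fibroblast sums were 29794 against 29940, 28064 against 28230 and 26597 against 25919 units. The Lox 1416121_at signals were 757 against 737, 420 against 401 and 390 against 370 units. Over all tested probe sets, 11.5% were higher in 3 of 3 pairs at 48 h against control and 13% against 24 h. The part of the fibroblast markers in the 48 h values of Lox was not tested.

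Sums of some other markers were far higher on single arrays. Skeletal muscle markers summed to 5055 units on replicate 1 at 24 h and to 214.7 to 566.5 units on the other 8 arrays, and neutrophil markers to 22062 units on replicate 1 at 48 h and to 5444.6 to 11695 units on the other 8. Replicate 1 at 48 h was also the array with the highest Lox 1416121_at and Eln signals, and the part of these markers in them was not tested. Cartilage also holds lysyl oxidase substrates. Of its 5 markers on the chip, Col2a1, Acan and Comp were not detected on any array, and 1 other was detected on all 9. Of the melanocyte markers, Pmel, Dct and Tyrp1 were not detected on any array, and 0 of the 4 on the chip were tested.

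The genes most like each member were sought among 14642 tested probe sets with a single symbol, by Pearson r of normalised log2 values over the 9 arrays. The highest of so many coefficients over so few arrays are large by selection, so they are a description only. For Lox they were Atxn7l1 (0.984), Rhoj (0.975) and Arrdc4 (0.968), and for Loxl1 Nrcam (0.968), Eid1 (0.950) and Col3a1 (0.948). For Loxl3 they were Spata5 (0.939), Grn (0.936) and Ccl27a (0.935), and for Loxl4 1421153_at Necab2 (0.918), Frmd4b (0.917) and Slc7a4 (0.913).

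After each replicate number's mean was subtracted, the order changed. Lox was then most like Brinp1 (0.973), Helb (0.972) and Atxn7l1 (0.964), and Loxl1 most like Cd36 (0.984), Slc25a44 (0.980) and Phc2 (0.972). Loxl3 was most like Jak1 (0.977), Pik3cd (0.966) and Samd8 (0.957), and Loxl4 1421153_at most like Ube2a (0.971), Spry1 (0.966) and Alb (0.965). Atxn7l1 was the only gene named by both measures for any member. Within the family, Lox 1416121_at and Loxl1 correlated with r = 0.82 over the 9 arrays, and with r = 0.47 after the replicate means were subtracted. For Lox 1448228_at and Loxl1 these were 0.60 and 0.24.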

How the data were processed

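The deposited sample files hold, per the file headers, columns of signal intensity, detection p-value and call for 22690 probe sets. The authors scaled the linear signal intensity (trimmed mean 500.1 to 500.2 on each array); the software was not named. The chip in the labels has more transcripts than the files have probe sets, so the chip type is uncertain. The authors' series table of intensity values matched sample files within 0.051 units, each column a file of another label (8 columns complete, 1 at 22417 of 22690). The time written in each sample file matched its source name, so the sample files were used; the titles of the 48 h samples, however, open with a 24 h name before they state 48 h. Of other per-sample columns, 0 were left unused.

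After an offset of 16, log2 values were quantile normalised without the 64 control probe sets. Tested were 15886 probe sets (9281 genes) with detection p under 0.05 on every array of a group. Platform annotation gave 20393 probe sets 1 symbol, 691 several and 1606 none; updating to GRCm38.p6 changed 0. Limma 3.58.1 in R 4.3.3 fitted a mean per group to all 9 arrays (lmFit, eBayes, two-sided, Benjamini-Hochberg), and the script was tested on simulated data. Same-number arrays had deviations from group means correlated at 0.275 to 0.651 (9 pairs), other pairs at -0.561 to 0.308 (18 pairs). These values do not establish a pairing beyond the distinct replicate 1 arrays, so the block is given beside results and not as the main fit. Each list gene was read at its brightest tested probe set. Named are all probe sets of the members, for each member the 3 most alike genes, and from each list those past the threshold and among the 2 highest and 2 lowest by moderated statistic, with Eln and Col1a1 signals added because results refer to them. The members and the 10 lists were chosen with earlier results of these data known. The number of arrays limits precision. Alternatives were other offsets, normalisations and filters, array weights, the block, the table's labels and leaving out arrays.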

Additional observations from a re-analysis of the deposited data

How the results depend on the processing

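Counts passing in the 3 group comparisons were 0 under all 19 alternatives each, and the replicate block changed no adjusted call. Of 418 values of the family's probe sets under the labels of the sample files, 393 kept direction and side of the threshold, 15 reversed and 10 lost a call in the replicate contrast. Fits of group differences that left out 1 array had no block, so the groups were then unbalanced for the replicate number. Leaving out 1 array gave ranges on the log2 scale of -0.21 to 0.38 for Lox 1416121_at, -0.21 to 0.29 for Lox 1448228_at, -0.54 to 0.052 for Loxl1 and -0.014 to 0.17 for Loxl4 1450134_at at 24 h against control. At 48 h against control it gave 0.093 to 0.74 for Lox 1416121_at, 0.043 to 0.56 for Lox 1448228_at and 0.100 to 0.47 for Loxl1. It gave -0.16 to 0.10 for Loxl3 at 48 h against control and -0.14 to 0.038 for Loxl4 1421153_at at 48 h against 24 h. With array weights the 24 h difference was 0.19 for Lox 1448228_at and -0.031 for Loxl4 1450134_at, and without the replicate 1 arrays it was 0.20 for Lox 1448228_at. Detection on all 9 arrays left no value for Loxl4.

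With the authors' table labels 14 of 24 values reversed, because its columns hold other groups' files. Differences at 24 h against control were -0.44 for Lox 1416121_at, 0.060 for Loxl3 and -0.30 for Loxl4 1421153_at. At 48 h against control they were -0.37 for Lox 1416121_at, -0.27 for Lox 1448228_at, -0.44 for Loxl1 and 0.48 for Loxl4 1450134_at. At 48 h against 24 h they were -0.020 for Lox 1448228_at, -0.16 for Loxl1, -0.26 for Loxl3, 0.38 for Loxl4 1421153_at and 0.051 for Loxl4 1450134_at. In the replicate contrast they were 0.11 for Loxl3 and 0.041 for Loxl4 1450134_at, and Lox 1416121_at had 0.52 with an adjusted p of 0.916. The fibrillar collagen median at 48 h against control was -0.30.

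The replicate contrast called 3196 probe sets, 2088 with no filter on dim probe sets, 0 with the table's labels (whose numbers 1 and 2 are exchanged in 1 group), and 881 to 2908 with 1 array left out. Dropping replicate 1 of the controls gave 881, of the 24 h group 1185 and of the 48 h group 1412, and dropping replicate 2 at 48 h gave 1913. The causes of the other changes were not tested. Without the filter, Lox 1448228_at and Loxl1 had adjusted p values of 0.0716 and 0.0519 in it. Lox 1448228_at also lost its call without 24 h replicate 2 (0.0636), 48 h replicate 1 (0.109) or 48 h replicate 2 (0.0755), and Loxl1 without control replicate 3 (0.0531). Of 600 list medians 65 moved by more than the spread between replicates.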
